A study of Mus musculus with 6 samples.

Results

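Transcripts of 10 genes for S100 proteins and annexins were followed in mouse hepatic progenitor cells, which are immature liver epithelial cells able to give rise to hepatocytes and bile duct cells. The genes were S100a1, S100a4, S100a6, S100a10, S100a11, Anxa1, Anxa2, Anxa3, Anxa5 and Anxa8, and every probe of the deposited table that carried one of these symbols was used, which gave 12 of 25697 probes and 10 of 17893 genes. The cells came from livers of C57BL/6 mice described as controls, with 3 samples of genotype Met fl/fl and 3 of genotype Egfr fl/fl. Floxed alleles carry recombination sites around part of the gene and stay intact without a recombinase, and the labels name no recombinase for either group. Ages are not given in the labels. RNA of each sample was read on 1 Illumina bead array in 1 colour. Whether each sample had its own animal or culture is not in the labels. The p-values thus reflect only the scatter of these 6 samples, part of which may be technical. Slide and batch are not given in the labels either, and a slide, animal or culture that held only 1 genotype cannot be told apart from the genotype.

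S100 proteins are small calcium sensors with EF-hand loops that work mostly as dimers and bind target proteins when calcium rises. Annexins bind acidic membrane phospholipids in the presence of calcium, and take part in membrane repair, vesicle traffic and the anchoring of the actin cortex. Members of the families pair with each other: the S100a10 dimer joins Anxa2 in a complex under the plasma membrane, and S100a11 binds the N-terminal part of Anxa1. In liver, S100a4 is known from fibroblasts and macrophages, and several annexins are known from bile duct epithelium.

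The mean deposited signal was 275 to 398 units on the Met fl/fl arrays and 241 to 321 units on the Egfr fl/fl arrays. Between 43.8% and 45.3% of all probes were detected on an array, that is, had a detection p under 0.05 against the negative controls. Pearson r over the 11578 tested probes was 0.985 to 0.992 within Met fl/fl, 0.967 to 0.991 within Egfr fl/fl and 0.891 to 0.921 between the groups. Of the biliary and progenitor markers, 9 of the 11 with a probe were detected on all 6 arrays, among them Krt8 and Spp1, and Prom1 was not detected on any array. Of 9 hepatocyte markers with a probe, only Ttr was detected on all 6 arrays, and Alb, Cps1, Cyp2e1, Tat and Tdo2 were not detected on any. Each array counts as 1 sample, and the number of arrays limits the precision of every value.

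All 12 probes were bright enough to be tested. Signals were normalised between arrays and given as log2 intensity, and differences are Met fl/fl minus Egfr fl/fl. In Met fl/fl cells the transcripts of Anxa8, S100a4 and S100a1 were higher, and those of Anxa1, Anxa5, S100a10, Anxa2 and Anxa3 were lower, than in Egfr fl/fl cells. S100a6 and S100a11 did not pass the threshold, an adjusted p of 0.05 in limma. Called differences of at least 2-fold made up 6 of the 12 probes and 15.4% of all tested probes. By probe, 4 of 12 were called higher in Met fl/fl, where 21.6% of all tested probes were called in that direction, and 6 were called higher in Egfr fl/fl, where 18.2% of all were. Calls in either direction made up 39.8% of all tested probes. The 3 values of Met fl/fl and of Egfr fl/fl did not overlap in 10 of the 12 probes, against 50.1% of all tested probes. The median absolute log2 difference was 0.98 over the 12 probes and 0.41 over all tested probes, and the median signed difference was -0.24 over the 12 and 0.06 over all. The members were chosen with earlier results of these data known, so these counts and medians are no independent evidence of an excess over all probes. They also count 2 probes each for Anxa3 and Anxa8, and the Anxa8 probes were tested only because of their signal in Met fl/fl. In these bulk samples, fewer cells of a type and less RNA per cell cannot be told apart.

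**Figure D1:**
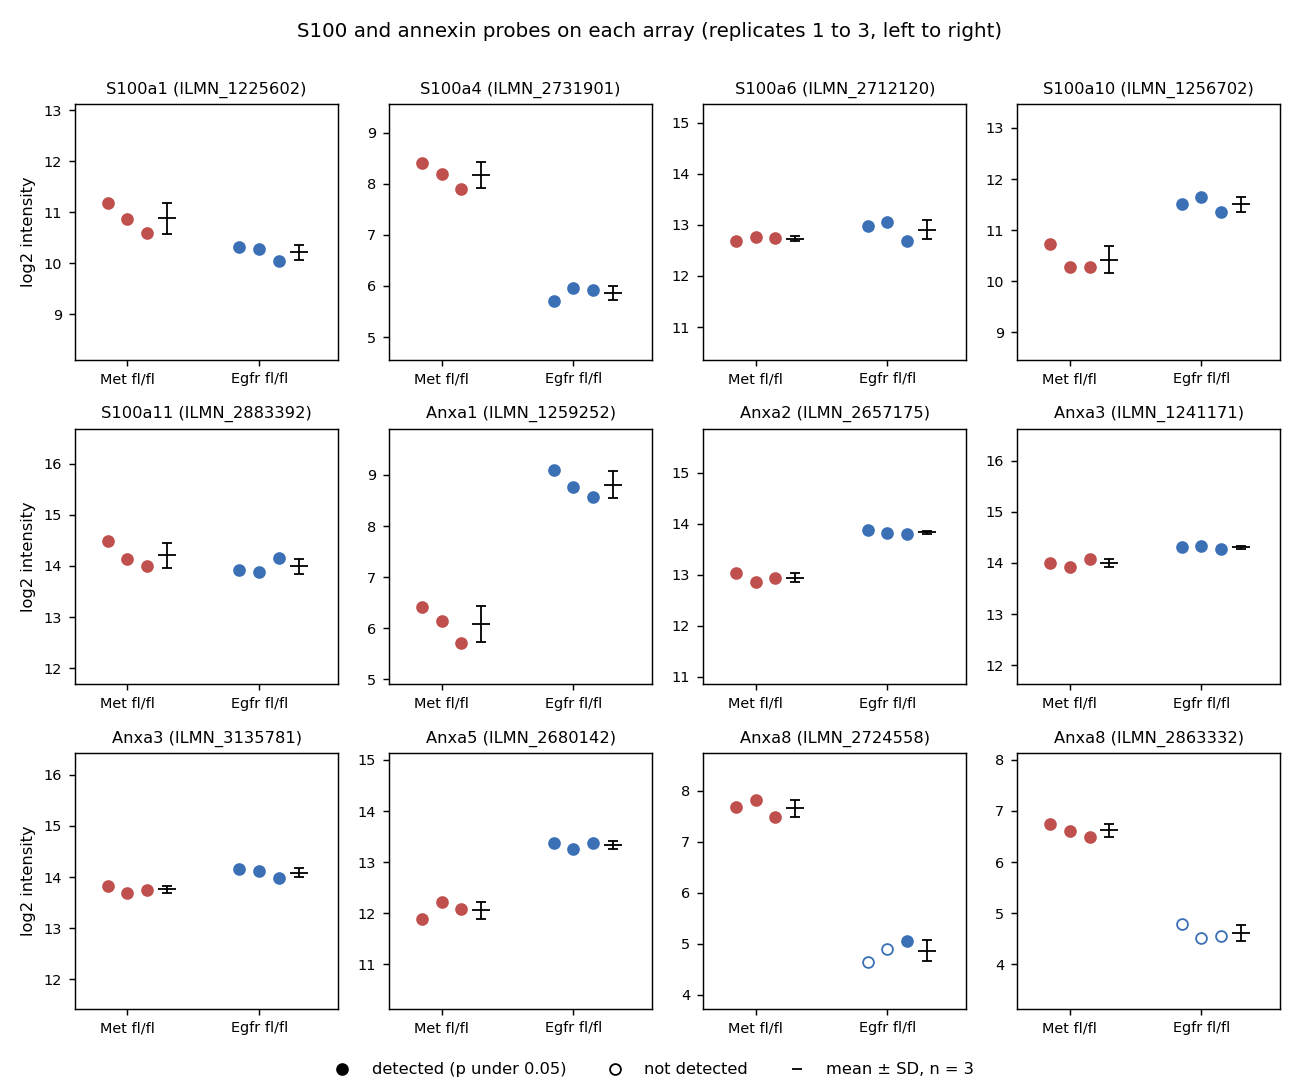
The 12 S100 and annexin probes are plotted as log2 intensity, with the 3 Met fl/fl arrays left of the 3 Egfr fl/fl arrays, filled points for detected signals, and the mean ± SD beside each group. Every panel spans the same number of log2 units. The groups are far apart for S100a4, Anxa1 and both Anxa8 probes and overlap for S100a6 and S100a11.

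**Figure D2:**
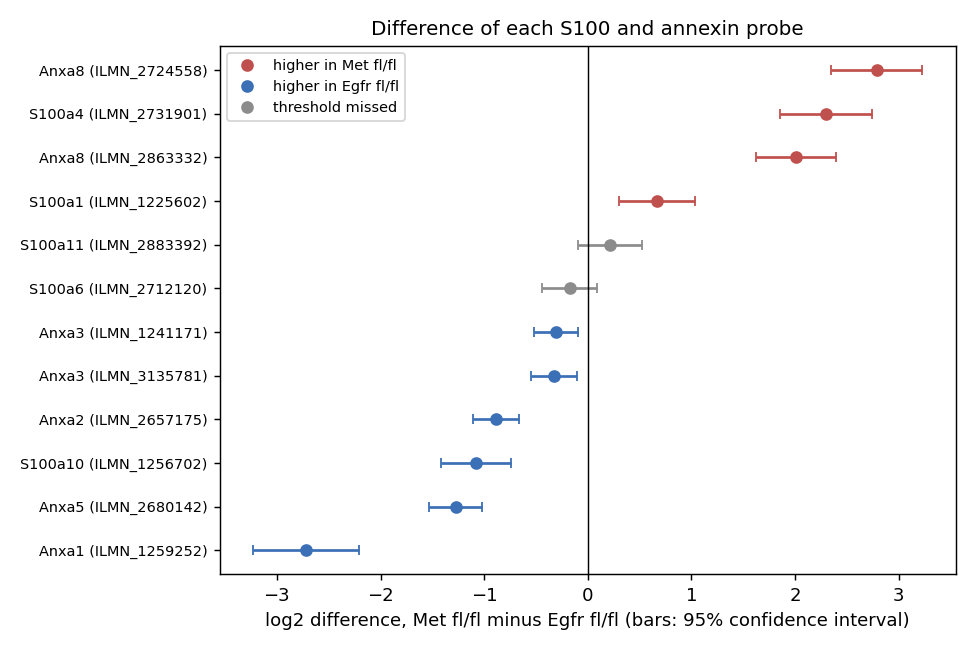
The log2 difference, Met fl/fl minus Egfr fl/fl, is plotted for each probe with its 95% confidence interval. Probes called higher in Met fl/fl run up to 2.79 for Anxa8, those called higher in Egfr fl/fl reach -2.72 for Anxa1, and the intervals of S100a6 and S100a11 cross 0.

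Among the S100 genes, S100a4 showed the largest difference. This gene encodes an S100 protein that binds non-muscle myosin and is known for its link to cell motility. As deposited, before normalisation and in the order of the replicate numbers, its probe read 441, 270.2 and 204 units in Met fl/fl, against 30.4, 39.7 and 54.0 units in Egfr fl/fl. All 6 arrays detected it, with detection p-values of at most 0.00251, and every Met fl/fl array lay above every Egfr fl/fl array. The log2 intensity was 8.17 ± 0.25 in Met fl/fl, against 5.87 ± 0.13 in Egfr fl/fl (SD, n = 3 each), which is 4.93-fold higher in Met fl/fl (a log2 difference of 2.30 ± 0.20 SE, limma adjusted p = 1.76e-05). The size of this difference depended on how dim signals were treated. With an offset of 50 units in place of 16 the log2 difference was 1.80. With signals raised to a floor of 16 units and no other background correction it was 2.67.

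S100a1 encodes an S100 protein best known from heart muscle, where it regulates calcium handling. It read 3108, 1819.5 and 1392 units in Met fl/fl, against 1001, 1008 and 1172 units in Egfr fl/fl. The groups did not overlap, but the Met fl/fl arrays spread widely and replicate 1 was the brightest. After normalisation S100a1 was 1.59-fold higher in Met fl/fl (a log2 difference of 0.67 ± 0.16 SE, limma adjusted p = 0.00916), with means of 10.88 ± 0.30 in Met fl/fl, against 10.21 ± 0.15 in Egfr fl/fl. It missed the threshold when arrays were scaled by their median in place of quantile normalisation (log2 difference 0.66, adjusted p = 0.0517).

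S100a10 and Anxa2, whose proteins form 1 complex, were both lower in Met fl/fl. S100a10, which unlike most of its family is held in an active shape without calcium, read 2281, 1212 and 1145 units in Met fl/fl, against 2322, 2681 and 2832 units in Egfr fl/fl. Replicate 1 of Met fl/fl came close to the lowest Egfr fl/fl array before normalisation, and the groups were further apart after it. S100a10 was then 2.12-fold higher in Egfr fl/fl (a log2 difference of -1.08 ± 0.15 SE, limma adjusted p = 0.000406), with means of 10.42 ± 0.26 in Met fl/fl, against 11.51 ± 0.15 in Egfr fl/fl. Anxa2, which binds phosphoinositide-rich membrane and actin, read 11389, 7086 and 7224 units in Met fl/fl, against 12401, 12366 and 14336 units in Egfr fl/fl. The groups of Anxa2 did not overlap, and the normalised values within a group lay close together. Anxa2 was 1.85-fold higher in Egfr fl/fl (a log2 difference of -0.89 ± 0.10 SE, limma adjusted p = 9.66e-05), with means of 12.94 ± 0.09 in Met fl/fl, against 13.83 ± 0.04 in Egfr fl/fl. The 95% confidence intervals of the 2 partners overlapped, from -1.42 to -0.74 for S100a10 and from -1.11 to -0.66 for Anxa2, and whether their differences were unequal was not tested.

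S100a6, the calcyclin of proliferating cells, read 8684, 6766 and 6606 units in Met fl/fl, against 6917, 7342 and 6896 units in Egfr fl/fl, and the groups overlapped. Its log2 difference was -0.18 with a 95% confidence interval from -0.44 to 0.09 (limma adjusted p = 0.267). Without Egfr fl/fl replicate 3, which lay within the Met fl/fl range after normalisation, the difference was -0.28 and passed (adjusted p = 0.0387), and without Egfr fl/fl replicate 2 it was -0.10 (adjusted p = 0.619). S100a11, the partner of Anxa1, read 30548, 16919.7 and 15743 units in Met fl/fl, against 12774, 12941 and 18135 units in Egfr fl/fl. Here too the groups overlapped, with Met fl/fl replicate 1 the brightest array and Egfr fl/fl replicate 3 above the other 2 of its group. The log2 difference of S100a11 was 0.22, with an interval from -0.09 to 0.52 (limma adjusted p = 0.240), and it was 0.08 without Met fl/fl replicate 1. Only 0.0545% to 0.191% of all probes were brighter than S100a11 on an array, and the sources used here do not say where the scanner saturates.

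Anxa8 was the 1 annexin of the 5 with a higher level in Met fl/fl. It is known from stratified epithelia and binds phosphatidylinositol lipids. Its brighter probe (ILMN_2724558) read 261, 206 and 151 units in Met fl/fl, against 2.71, 10.6 and 18.7 units in Egfr fl/fl. In Egfr fl/fl only replicate 3 detected it, at a detection p of 0.0226, with 0.287 and 0.0576 on replicates 1 and 2. The dimmer probe (ILMN_2863332) read 125, 79.9 and 65.8 units in Met fl/fl, against 7.34, -3.93 and -3.09 units in Egfr fl/fl, where 0 of 3 arrays detected it. Both probes were thus tested only because of their signal in Met fl/fl, so that a difference followed in part from the filter, and their folds are lower bounds. For such a bound, an Egfr fl/fl array whose signal lay under its dimmest detected probe was given the level of that dimmest probe before the means were compared. By the brighter probe, Met fl/fl exceeded Egfr fl/fl at least 6.43-fold for Anxa8 (7.65 ± 0.16 in Met fl/fl, 4.87 ± 0.20 in Egfr fl/fl, limma adjusted p = 4.08e-06). By the dimmer probe the excess was at least 3.25-fold (6.62 ± 0.13 in Met fl/fl, 4.61 ± 0.15 in Egfr fl/fl, limma adjusted p = 1.78e-05).

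The fitted log2 differences of the Anxa8 probes were 2.79 and 2.01. With an offset of 50 units in place of 16, which compresses dim signals more, they were 1.90 and 1.18. With signals raised to a floor of 16 units and no other background correction they were 3.51 and 2.37. The difference between the probes, tested in limma over 2141 genes with at least 2 tested probes, was 0.78 ± 0.20 (SE, adjusted p = 0.0497), and 7.61% of those genes passed. That call ended with median scaling (adjusted p = 0.0915) and without Met fl/fl replicate 1 (0.119), 2 (0.191) or 3 (0.170) or Egfr fl/fl replicate 1 (0.140) or 2 (0.0802). It was kept without Egfr fl/fl replicate 3 (0.0115), with the replicate number as a block (0.0423) and with the floor of 16 units (1.14, adjusted p = 0.00729). Both probes lay near background in Egfr fl/fl, so the test compared lower bounds. It cannot tell unequal probes from a difference cut short by background.

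Anxa1, a mediator of glucocorticoid action that limits inflammation, differed most in the other direction. It read 93.7, 51.7 and 31.6 units in Met fl/fl, against 412, 339 and 422 units in Egfr fl/fl. All 6 arrays detected it, and the groups were far apart. Anxa1 was 6.58-fold higher in Egfr fl/fl (a log2 difference of -2.72 ± 0.23 SE, limma adjusted p = 1.42e-05), with means of 6.09 ± 0.35 in Met fl/fl, against 8.81 ± 0.26 in Egfr fl/fl. The log2 difference of Anxa1 was -2.23 with the offset of 50 units and -3.05 with the floor of 16 units. Its partner S100a11 had the small difference given above, in the opposite sense and short of the threshold.

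Anxa5, which binds phosphatidylserine exposed on dying cells, read 5112, 4608 and 4044 units in Met fl/fl, against 9074, 8350.0 and 11192 units in Egfr fl/fl. No Met fl/fl array reached the lowest Egfr fl/fl array. Anxa5 was 2.42-fold higher in Egfr fl/fl (a log2 difference of -1.28 ± 0.12 SE, limma adjusted p = 2.38e-05), with means of 12.06 ± 0.16 in Met fl/fl, against 13.33 ± 0.07 in Egfr fl/fl.

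Anxa3, an annexin known from neutrophil granules, showed the smallest difference among the called members. One probe (ILMN_1241171) read 22303, 15576 and 16209.5 units in Met fl/fl, against 17247, 19001 and 19739.9 units in Egfr fl/fl. The other (ILMN_3135781) read 19957, 13196 and 13256 units in Met fl/fl, against 15385, 15152 and 16047 units in Egfr fl/fl. Before normalisation Met fl/fl replicate 1 was the brightest array for both probes and the groups overlapped, and they did not overlap after it. The log2 differences were -0.30 ± 0.09 and -0.33 ± 0.10 (SE, limma adjusted p = 0.0274 and 0.0251), and the difference between the probes did not pass (0.02, interval -0.29 to 0.34, adjusted p = 0.949). Both calls ended with median scaling (adjusted p = 0.347 and 0.420) and without a variance trend (0.108 and 0.0934). They also ended without Met fl/fl replicate 2 (0.131 and 0.108), Egfr fl/fl replicate 1 (0.0987 and 0.123) or Egfr fl/fl replicate 2 (0.115 and 0.0942). The second probe missed the threshold without Met fl/fl replicate 3 as well (0.0632).

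**Figure D3:**
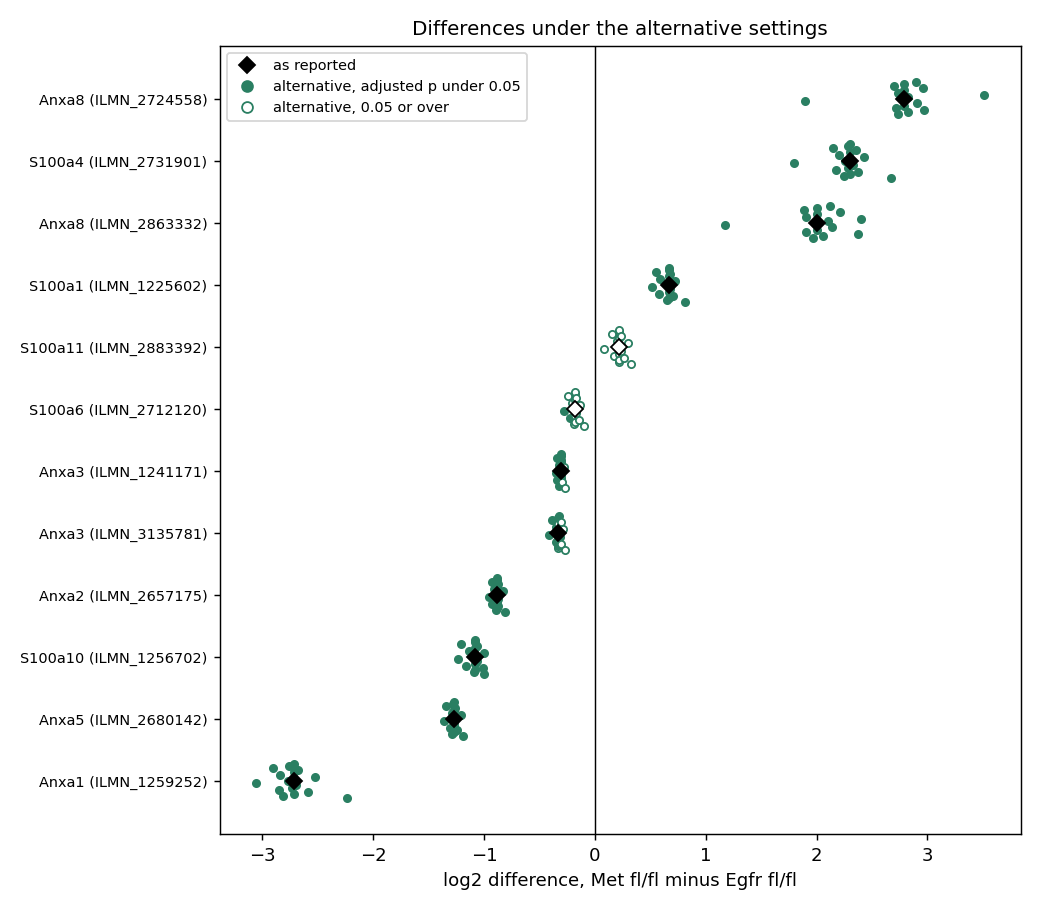
For each probe the log2 difference, Met fl/fl minus Egfr fl/fl, is shown as reported (diamond) and under each alternative setting (circles, spread vertically for legibility), with open symbols where the adjusted p was 0.05 or over. No probe changed sign, the Anxa8 probes moved most (1.90 to 3.51 and 1.18 to 2.40), and both Anxa3 probes have open circles among the filled ones.

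Within a genotype, no replicate was the highest or the lowest for all 12 probes. Met fl/fl replicate 1 read the highest of its group after normalisation for 8 of the 12 probes and Met fl/fl replicate 3 the lowest for 7. In Egfr fl/fl, replicate 3 read the lowest for 7 probes and the highest for 2, and replicate 1 the highest for 6. Anxa5 and S100a6 were the genes for which Met fl/fl replicate 1 was the lowest of its group.

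Promoter sequences from RefSeq (GRCm38.p6) were available for 8 of the 10 genes, and those of the 3 genes with the largest differences are shown because S100a4 and Anxa8 were higher and Anxa1 lower in Met fl/fl. Each covers the 250 bases before the annotated start, 5′ to 3′ on the gene's strand, at chr3:90603520-90603769 (+ strand) for S100a4, chr14:34085729-34085978 (+ strand) for Anxa8 and chr19:20390672-20390921 (- strand) for Anxa1. Capitals mark matches on either strand to the motifs searched: the AP-1 element TGANTCA, the TATA box TATAAA, the TEAD element GGAATG and the GC box GGGCGG.
S100a4: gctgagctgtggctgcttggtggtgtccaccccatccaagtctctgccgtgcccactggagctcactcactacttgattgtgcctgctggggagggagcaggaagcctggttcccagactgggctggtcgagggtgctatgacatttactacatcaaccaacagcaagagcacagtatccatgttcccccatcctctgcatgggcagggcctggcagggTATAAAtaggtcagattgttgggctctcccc
Anxa8: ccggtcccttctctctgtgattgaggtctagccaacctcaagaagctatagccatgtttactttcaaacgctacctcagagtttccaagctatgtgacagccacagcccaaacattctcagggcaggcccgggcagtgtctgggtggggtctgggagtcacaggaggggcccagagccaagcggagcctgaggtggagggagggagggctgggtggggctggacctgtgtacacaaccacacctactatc
Anxa1: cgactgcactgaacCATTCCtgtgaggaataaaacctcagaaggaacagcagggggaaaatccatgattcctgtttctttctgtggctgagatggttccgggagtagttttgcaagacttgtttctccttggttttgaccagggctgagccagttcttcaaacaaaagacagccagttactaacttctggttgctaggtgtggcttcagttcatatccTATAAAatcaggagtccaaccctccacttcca

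S100a4 and Anxa1, which differed in opposite directions, each held 1 TATAAA, at 31 and 32 bases before the start. A TATAAA lies in 12.4% of the 32851 promoters of the table. That share counts a match on either strand anywhere in the 250 bases, so it is no share for this position. Anxa1 also held 1 reverse match to GGAATG, 236 bases before the start, a motif found in 12.6% of promoters. Anxa8 held none of the 4 motifs in this window, nor did S100a1, S100a6 or Anxa5. TGANTCA, present in 6.75% of promoters, was found at 2 places before S100a11 and at 1 before Anxa2. GGGCGG, present in 32.7% of promoters, was found at 3 places before each of these 2 genes. The Anxa2 window held a TATAAA as well, 17 bases before the start, and no matches to different motifs overlapped. A match describes the letters and is no measurement of binding.

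Most mouse S100 genes lie side by side on chromosome 3 in the RefSeq table for GRCm38.p6. Of this run, S100a1, S100a3 and S100a4 were called higher in Met fl/fl, while S100a10, which lies apart from it, was called higher in Egfr fl/fl. S100a1 was followed by S100a13, whose annotated span overlaps it, then by S100a14, S100a16, S100a3, S100a2, S100a4, S100a5 and S100a6, with no other coding gene between them. S100a3, the gene next but one before S100a4, passed the threshold with signal at least 1.88-fold above Egfr fl/fl in Met fl/fl (5.92 ± 0.13 in Met fl/fl, 4.90 ± 0.29 in Egfr fl/fl, where 1 of 3 arrays detected it, limma adjusted p = 0.00206). Like the Anxa8 probes it was tested only because of its signal in Met fl/fl, so its difference followed in part from the filter, and it was not tested with a filter asking for detection on all 6 arrays. S100a13 had a log2 difference of 0.60 that missed the threshold (limma adjusted p = 0.0736), while S100a5 was too dim to test and S100a6 is given above. S100a14 and S100a16, which lie between S100a13 and S100a3, had log2 differences of 0.10 and 0.05 (limma adjusted p = 0.627 and 0.842). S100a11 and S100a10 lie next to each other, 54 coding genes after the last other S100 gene. Their log2 differences were 0.22 and -1.08, in opposite senses, and only that of S100a10 passed.

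**Figure D4:**
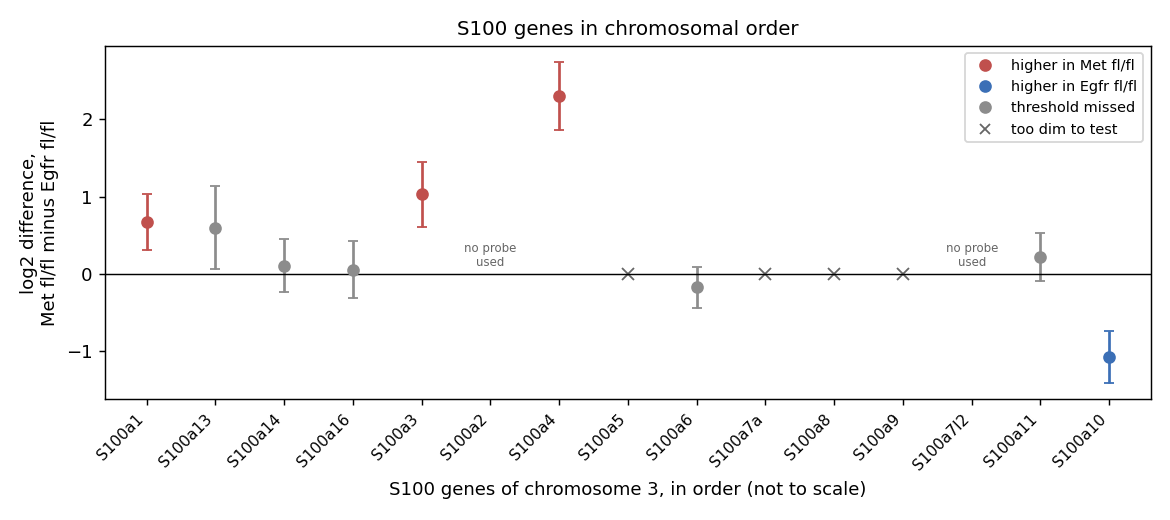
The S100 genes of chromosome 3 are plotted in their order along the chromosome, not to scale, against the log2 difference Met fl/fl minus Egfr fl/fl with its 95% confidence interval. S100a1, S100a3 and S100a4 were called higher in Met fl/fl and S100a10 higher in Egfr fl/fl, and crosses at 0 mark genes too dim to test. S100a13, S100a14, S100a16, S100a6 and S100a11 missed the threshold.

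The rest of both families was followed through lists, each gene by its brightest tested probe. Of 11 other S100 genes 10 had a probe and 4 were tested, of which 1 was higher in Met fl/fl (S100a3), 0 were higher in Egfr fl/fl and 3 did not pass, with a median log2 difference of 0.35, where 21.6% of all tested probes were called with the higher level in Met fl/fl, and 18.2% with it in Egfr fl/fl. S100a8 and S100a9, the calprotectin subunits of neutrophils, were not detected on any array. Of 7 other annexin genes 4 were tested, and 0 passed as higher in Met fl/fl, 3 as higher in Egfr fl/fl, with a median of -0.82 and the same shares over all tested probes. These are few genes. Anxa6, which has a doubled set of annexin repeats, averaged 9.47 ± 0.12 in Met fl/fl, against 11.10 ± 0.32 in Egfr fl/fl (a log2 difference of -1.63 ± 0.17 SE, limma adjusted p = 5.52e-05). Anxa13, an annexin of the intestinal epithelium, averaged 8.64 ± 0.19 in Met fl/fl, against 9.73 ± 0.28 in Egfr fl/fl (log2 difference -1.09, limma adjusted p = 0.000949). Anxa4, known from secretory epithelia, had a log2 difference of -0.55 (limma adjusted p = 0.00555), and missed the threshold with median scaling (0.173).

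Of 19 listed genes for binding partners and receptors of these proteins 10 were tested, with 0 called higher in Met fl/fl, 2 called higher in Egfr fl/fl and a median log2 difference of 0.02. Over all tested probes 39.8% were called, and the median was 0.06. Plaur, the urokinase receptor, averaged 8.34 ± 0.05 in Met fl/fl, against 9.66 ± 0.26 in Egfr fl/fl (a log2 difference of -1.32 ± 0.16 SE, limma adjusted p = 0.000164). Ppfibp1, a liprin bound by S100a4, had a log2 difference of -0.87 (limma adjusted p = 0.0325). Its Egfr fl/fl arrays spread widely (SD 0.60), and its call ended without any 1 of the arrays other than Egfr fl/fl replicate 3 (adjusted p = 0.0687 to 0.110). Outside the rule for named genes, and chosen for their roles after values were seen, Fpr1 and Fpr2, the receptors of Anxa1, were not detected on any array. Myh9, chosen likewise, the heavy chain of non-muscle myosin bound by S100a4, had a log2 difference of 0.09 (limma adjusted p = 0.575).

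Markers of other cell types moved with some of these differences, and their part in the results was not tested. The summed level of 12 stellate cell and fibroblast markers was 107 to 115 units in Met fl/fl, against 432 to 872 units in Egfr fl/fl, so it was lower where S100a4 was higher. Of these 12 markers, 0 were detected on all 6 arrays and 7 were not detected on any, among them Col1a1, Col3a1 and Pdgfra. Acta2, a contractile actin, carried most of the sum in Egfr fl/fl, with a log2 intensity of 9.12 ± 0.66 there. Its brightest probe, the one used, was detected on 0 of 3 Met fl/fl and 3 of 3 Egfr fl/fl arrays and had a log2 difference of -4.46. Its other probes were dimmer, at 5.41, 5.70 and 5.84 in Egfr fl/fl. Their log2 differences were smaller, at -0.51 (limma adjusted p = 0.0745, not called), -1.11 and -1.05. In Met fl/fl no marker of this list was detected on all 3 arrays, so the sum there lay near background. Dcn, the other member tested, was likewise detected on 0 of 3 Met fl/fl and 3 of 3 Egfr fl/fl arrays (at least 1.35-fold above Met fl/fl in Egfr fl/fl, limma adjusted p = 0.00439). The sum over 9 leukocyte markers was 1235 to 1398 units in Met fl/fl, against 422 to 577 units in Egfr fl/fl. Cd14 was the 1 marker of that list detected on all 6 arrays (log2 difference 1.56, limma adjusted p = 4.20e-05) and carried most of the sum. Csf1r, the only other member tested, passed in the opposite direction, with 0 of 3 Met fl/fl and 3 of 3 Egfr fl/fl arrays detecting it (at least 1.47-fold above Met fl/fl in Egfr fl/fl, limma adjusted p = 0.0200). Ptprc, Itgam, Emr1, Cd3e and Tyrobp were not detected on any. The sum over 6 mesothelial markers was 1425 to 1626 units in Met fl/fl, against 7632 to 8128 units in Egfr fl/fl, the direction of Anxa1 and Anxa5. The brightest of them in Egfr fl/fl was Gp38 (podoplanin), detected on 0 of 3 Met fl/fl and 3 of 3 Egfr fl/fl arrays, with a log2 intensity of 4.70 in Met fl/fl, against 12.32 in Egfr fl/fl (at least 165-fold apart, limma adjusted p = 1.53e-09). Msln went the other way (log2 difference 2.48), and of the 5 tested, 1 passed as higher in Met fl/fl and 3 as higher in Egfr fl/fl. Biliary and progenitor markers summed to 19286 to 21363 units in Met fl/fl, against 30460.0 to 33851 units in Egfr fl/fl. Of the 10 tested, 0 passed as higher in Met fl/fl and 5 as higher in Egfr fl/fl, among them the transcription factor Sox9 (log2 difference -1.88), the adhesion protein Cdh1 (-1.36) and the keratins Krt7 (-1.54), Krt8 (-0.82) and Krt18 (-0.49). The shares over all tested probes are those given for the mesothelial markers. Endothelial markers summed to 78.0 to 100.5 units in Met fl/fl, against 59.5 to 84.4 units in Egfr fl/fl, with Cdh5, Emcn, Lyve1, Stab2 and Tie1 not detected on any array. Hepatocyte markers summed to 2909.9 to 3915 units in Met fl/fl, against 2173 to 3040.1 units in Egfr fl/fl. Among them Apoa1 passed as higher in Met fl/fl (3 of 3 Met fl/fl and 0 of 3 Egfr fl/fl arrays detecting it) and Serpina1a as higher in Egfr fl/fl (0 of 3 Met fl/fl and 3 of 3 Egfr fl/fl arrays). Acta2, Dcn, Csf1r, Gp38, Apoa1 and Serpina1a were tested only because of their signal in 1 genotype. Their differences thus followed in part from the filter.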

How the data were processed

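RNA from 3 Met fl/fl and 3 Egfr fl/fl samples was read on 6 Illumina arrays, processed with GenomeStudio 2011.1 per the submitters' processing notes. No label or header names the array model or annotation version. Each probe has an intensity that the authors deposited without normalization between arrays, on a linear scale. Between 26.9% and 31.1% of these values per array lie below 0, so a background had been subtracted. Per the file headers, a detection p-value stands beside each intensity, and its step fits 798 negative controls. A second deposited table of intensity values has nearly equal column medians (7.51 to 7.57) and ranks probes as the first does. Its scale is thus linear, without gene centring, and it served as an alternative.

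Groups and replicate numbers came from the sample labels. Signals were corrected with normexp (limma 3.58.1, R 4.3.3), taking the negative controls' mean and SD from the detection p-values. After an offset of 16, arrays were quantile normalised on the linear scale, and log2 values were then taken. The offset compresses differences of dim probes, and the normalisation removes differences in total RNA. On the Met fl/fl arrays 1 negative control lay far above the others, so the lowest signal with a detection p of 0 was 319 to 391 units there and 38.7 to 75.9 units on the Egfr fl/fl arrays. The 11578 of 25697 probes detected (p under 0.05) on 3 or more arrays entered lmFit and eBayes (variance trend, no covariates) and adjusted by Benjamini-Hochberg over all of them. Marker sums used the brightest probe per gene on the normalised linear scale, with the offset removed. The fit was tested on simulated data.

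Beside the 10 genes, genes were named by a rule: of the other S100, annexin and partner lists up to 3 genes in each direction past the threshold, with S100a8 and S100a9 always, and of each marker list up to 2 genes with the highest mean signal and up to 1 per direction past the threshold. Cdh1, Krt7, Krt18 and Upk1b fell outside this rule and were chosen after their values were seen. S100a5, S100a13, S100a14 and S100a16 are named for their place on chromosome 3. Markers not detected on any array are named as such. The members and lists were chosen with earlier results of these data known. Alternatives covered background, source of values, normalisation, offset, filter, variance model, weighting of arrays, a block for the replicate number and each array left out, with the probes tested kept.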

Additional observations from a re-analysis of the deposited data

How the results depend on the processing

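Over 17 alternatives, 11 of the processing and 6 that left out 1 array, none of the 12 S100 and annexin probes changed sign. Of 202 values 187 stayed on their side of the threshold, 13 lost the call (12 of Anxa3 and 1 of S100a1) and 2 gained it (both of S100a6, 1 of them with array weights, adjusted p = 0.0285). Between 7 (median scaling) and 11 of the 12 probes were called, against 10 as reported, and 8 to 11 with an array left out. Median scaling called 27.4% of all probes, of which 1439 were higher in Met fl/fl, 1731 in Egfr fl/fl. Cyclic loess gave 2223 and 2265 in that order, against 2499 and 2104 as reported, so both turned the balance of directions. With no filter the brighter Anxa3 probe had an adjusted p of 0.0507. With the filter set to detection p-values under 0.01 for all 6 arrays, neither Anxa8 probe was tested. In Egfr fl/fl 1 of 3 arrays had detected the brighter Anxa8 probe and 0 of 3 the dimmer, so this filter leaves both out. The cause of the lost calls of Anxa3 and S100a1 was not tested. Array weights raised the calls over all probes to 6992, against 4603, and those of partner genes to 5, against 2. Without a further background correction 1 partner gene was called, and 1 to 5 with an array left out, the 5 without Egfr fl/fl replicate 3. Of the other S100 genes 0 of the 1 tested was called with that stricter filter. Between 35 and 370 genes had unequal probes with an array left out, against 163 with all arrays; without Egfr fl/fl replicate 3 there were 370, and without Met fl/fl replicate 3 there were 35.

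Whether equal replicate numbers mark paired samples is not in the labels. Deviations from the group means correlated by 0.237, -0.145 and 0.319 for equal numbers 1, 2 and 3. For unequal numbers the correlations ran from -0.384 to 0.339, so these values do not decide the question. With the replicate block 5103 probes were called in all, 10 of the 12 S100 and annexin probes as without it, 2 of the other S100 genes against 1, and 3 partner genes against 2. Signals near background limit Anxa8 and S100a3, and the brightest probes, S100a11 and Anxa3, lie near the top of the range. S100a4 and Anxa1 were each dim in 1 genotype, and the sizes of their differences varied with the offset and the floor.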
